A study of Mus musculus with 6 samples.

Results

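RNA of genes that copy DNA and supply its building blocks was compared between 3T3-F442A cells with and without SWELL1. The set held 40 genes, chosen by symbol: the origin licensing factors, the replicative helicase, the sliding clamp and its loader, the replicative polymerases and primase, the main enzymes of deoxynucleotide (dNTP) supply, and factors of strand maturation. A row of the deposited table was a member when 1 of its names was such a symbol, which gave 36 of the 40 genes among 31097 rows. Cdt1, Gins2, Rfc1 and Pola2 were not analysed here. The row of Mcm7 also named the microRNAs Mir25 and Mir93, whose hairpins lie within that gene, and every other member row named the member alone.

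Both groups were cultures of 3T3-F442A, an established mouse preadipocyte line that the labels call an adipocyte line, grown in RPMI with 10% FBS. The 3 WT libraries came from parental cells with intact SWELL1, and the 3 SWELL1 KO libraries from cells whose SWELL1 gene (Lrrc8a) had been knocked out by CRISPR/Cas9. SWELL1 belongs to the anion channel that opens when cells swell. The series asked what its deletion does to gene expression in an adipocyte line. The labels call the libraries of a group biological replicates, but do not say whether the KO libraries share a clone. The KO sample names carry a mark, D3, that the WT names lack, so genotype, clone and that mark cannot be told apart. P-values cover the spread between these libraries.

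Before a cell copies its DNA, the origin recognition complex with Cdc6 and Cdt1 loads a ring of the MCM2-7 proteins at each origin. Cdc45 and GINS turn that ring into the active helicase, and primase, DNA polymerases alpha, delta and epsilon, the clamp PCNA and its loader RFC then copy both strands. Ribonucleotide reductase, thymidylate synthase, thymidine kinase and dUTPase make and clean the dNTP pool. Many of these genes are known targets of E2F transcription factors and peak near the start of S phase, so their RNA is commonly read as a sign of cycling. In RNA from whole cultures, fewer cells in S phase and less RNA per S-phase cell cannot be told apart.

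Levels are given in FPKM, fragments per kilobase scaled to library depth, as inferred from the Cufflinks run. Depth estimated from the lowest values was, in units of 1e6 fragments, 17.2 to 20.9 in WT and 18.4 to 26.0 in KO libraries. A single row, AC166252.2, took 16.7% to 23.7% of the FPKM sum in KO libraries and 2.1% at most in WT. The targeted gene shares its row with neighbouring genes, so it was not used as a check of the labels. Summed fibroblast marker levels were 6530 to 7150 FPKM in WT and 6620 to 6740 in KO, and summed adipocyte marker levels 143 to 202 and 9.03 to 10.4. All 8 fibroblast markers were nonetheless called, 4 lower and 4 higher: Thy1 went from 289 to 144 FPKM, Pdgfra from 215 to 142 and Col1a2 from 1440 to 909, while Vim went from 1460 to 1870 and Dcn from 917 to 1200. Most of the WT adipocyte sum was Fabp4, a fatty acid carrier, at 188, 156 and 133 FPKM, which was at 2.45 to 4.37 in KO. Pparg and Plin1 were also called lower. Most of the KO sum was Lipe, which was not called (limma adjusted p = 0.211). Lipe was at 7.24, 7.63 and 6.17 FPKM in WT and 6.32, 6.7 and 5.64 in KO. Of the fat cell hormone genes, Lep was listed at 0 in all 6 libraries and Adipoq was at 1.26 to 1.87 FPKM in WT and at most 0.0443 in KO. Macrophage, endothelial, epithelial and skeletal muscle markers each summed to at most 4.49 FPKM in any library, and Csf1r, Epcam, Myog and Myod1 were listed at 0 in all 6, which this table does not show to be true zeros. Among these markers Lyz2 and Krt7 were called lower and Vwf and Krt8 higher past a log2 change of 1. The part of these markers in the results below was not tested.

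Members with and without an E2F-type word were found among those that fell, rose or were not called, and the promoters of 6 are shown. These 6 do not cover every case. Dut and Rpa1, which rose, and Pcna and Tyms, which were not called, held no such word and are not shown. Each line is the 200 bases before a RefSeq start site (GRCm38.p6), written 5′ to 3′ on the gene's strand, with capitals marking matches to 4 words of the E2F type (TTTCCCGC, TTTGGCGC, TTTCGCGC and TTTGCCGC, searched on both strands). Uhrf1, at chr17:56304113-56304312 on the plus strand, Mcm2, at chr6:88898781-88898980 on the minus strand, and Rrm1, at chr7:102441495-102441694 on the plus strand, fell in KO. Pola1, at chrX:93632156-93632355 on the minus strand, rose. Mcm5, at chr8:75109309-75109508 on the plus strand, and Mcm6, at chr1:128359706-128359905 on the minus strand, did not pass the test.
Uhrf1: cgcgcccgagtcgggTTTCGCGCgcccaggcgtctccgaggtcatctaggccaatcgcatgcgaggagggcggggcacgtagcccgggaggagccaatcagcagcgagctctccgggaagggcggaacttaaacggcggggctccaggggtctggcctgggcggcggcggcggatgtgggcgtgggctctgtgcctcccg
Mcm2: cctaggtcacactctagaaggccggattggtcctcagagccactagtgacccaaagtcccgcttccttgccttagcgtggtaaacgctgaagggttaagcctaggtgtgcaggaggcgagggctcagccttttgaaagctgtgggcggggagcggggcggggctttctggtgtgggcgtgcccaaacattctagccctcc
Rrm1: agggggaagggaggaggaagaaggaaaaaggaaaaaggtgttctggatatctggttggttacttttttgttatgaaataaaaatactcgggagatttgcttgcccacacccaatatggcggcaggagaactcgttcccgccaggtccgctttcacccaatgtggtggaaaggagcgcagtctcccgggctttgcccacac
Pola1: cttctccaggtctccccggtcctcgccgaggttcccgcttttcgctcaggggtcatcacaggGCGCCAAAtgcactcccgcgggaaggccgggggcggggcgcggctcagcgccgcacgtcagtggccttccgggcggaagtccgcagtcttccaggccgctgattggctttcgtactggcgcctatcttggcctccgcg
Mcm5: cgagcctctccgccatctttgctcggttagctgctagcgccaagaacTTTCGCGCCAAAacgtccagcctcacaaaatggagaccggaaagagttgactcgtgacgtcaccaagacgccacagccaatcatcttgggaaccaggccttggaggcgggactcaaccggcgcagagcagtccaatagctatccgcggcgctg
Mcm6: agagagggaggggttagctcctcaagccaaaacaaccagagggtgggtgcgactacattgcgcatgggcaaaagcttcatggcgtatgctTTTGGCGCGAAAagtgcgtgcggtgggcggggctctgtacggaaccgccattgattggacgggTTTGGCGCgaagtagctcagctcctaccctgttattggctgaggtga
The Mcm5 stretch holds 2 words that overlap in a 12-base run, TTTCGCGCCAAA, beginning at position -153 from the start site. The Mcm6 stretch holds an overlapping pair beginning at positions -110 and -106 and another word at -47. Neither the Mcm2 nor the Rrm1 window held a match, although both genes fell. The Uhrf1 line belongs to the second of 2 start sites listed for that gene. That window was shown because it held a match, and the window of the first start site held no E2F-type word.

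Of the 36 member rows, 34 had a mean level of 0.5 FPKM or more and were tested, and Rfc4 and Fen1 were listed at 0 in all 6. Differences were tested with limma on log2(FPKM + 0.5), with adjustment over all 10515 tested rows, and a row was called at an adjusted p below 0.05. In KO, 17 of 34 members were lower, 5 were higher (14.7%) and 12 were not called. Over all tested rows 36.7% were lower and 28.5% higher, 65.2% in all, so the share of members called, 64.7%, stood at the background while its split leaned to lower values. At a log2 change of at least 0.58 in size on that scale, 12 members were called lower and 3 higher, against 19.6% and 15.7% of all rows. Mcm10, called lower and 1.54-fold lower by mean FPKM, missed that cut (-0.52). The groups did not overlap in 18 members that were lower in KO and 5 that were higher, against 40.3% and 31.5% of all rows (71.8% together).

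The median log2 fold change of the 34 members, KO minus WT on the log2(FPKM + 0.5) scale, was -0.35, beside -0.07 for all tested rows. Median-ratio scaling moved the median of all rows by 0.102, and the members' median then stood at -0.25, a difference from all rows of -0.27, against -0.28 as deposited. After that scaling 13 of 34 members were lower and 5 higher, beside 31.0% lower and 34.2% higher over all rows. Leaving out the 4 members with a library at 0 gave 16 lower, 5 higher and 9 not called of 30.

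**Figure D1:**
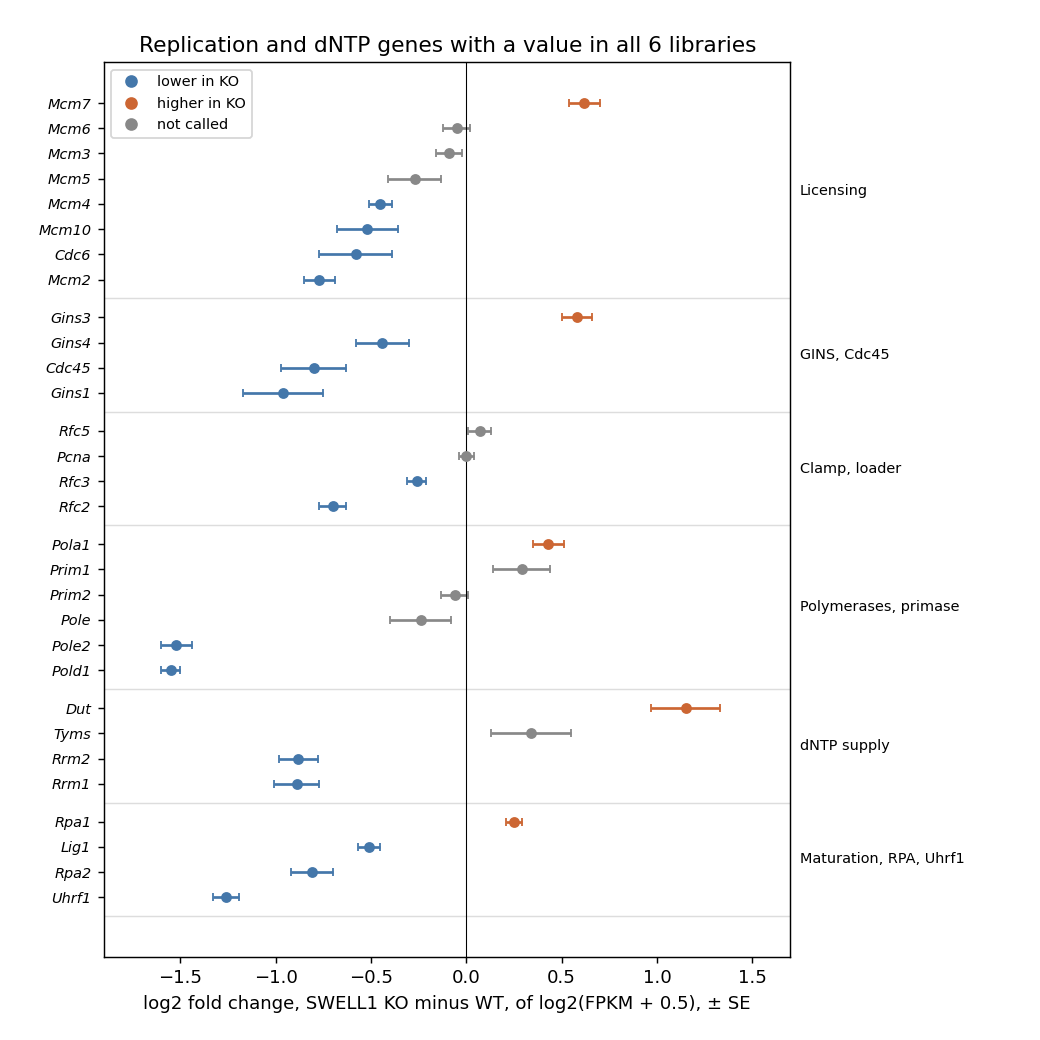
Log2 fold change (KO minus WT of log2(FPKM + 0.5), x axis) of the 30 members with a value above 0 in all 6 libraries, grouped by role, with bars of 1 SE from limma. Pold1 (-1.55), Pole2 (-1.52) and Uhrf1 (-1.26) lie farthest to the left and Dut (1.15) farthest to the right, and Pcna sits at 0.

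The 6 subunits of the MCM ring split 3 ways. Mcm2 fell 1.74-fold, Mcm4 1.37-fold, Mcm7 rose 1.55-fold, and Mcm3, Mcm5 and Mcm6 were not called. Mcm2 (chr6:88883474-88898780, GRCm38) was at 15.8, 17.4 and 18.0 FPKM in the 3 WT libraries, in the order of replicates, and 10.9, 9.42 and 9.16 in the 3 KO libraries (log2 fold change -0.77, SE 0.08, limma adjusted p = 0.000432). Mcm4 had 21.3, 20.2 and 21.0 FPKM in WT against 15.9, 14.0 and 15.6 in KO (-0.45, SE 0.06, limma adjusted p = 0.00109). Every WT value of both genes exceeded every KO value. Mcm7 (chr5:138164583-138172422) had 14.2, 17.0 and 16.3 FPKM in WT against 26.0, 24.0 and 23.6 in KO (0.62, SE 0.08, limma adjusted p = 0.000861), and here every KO library lay above every WT library.

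Mcm3 had 12.0, 13.2 and 12.4 FPKM in WT against 12.7, 11.5 and 11.0 in KO, and Mcm6 at 17.7, 18.7 and 19.6 and at 19.4, 17.5 and 17.1 (limma adjusted p = 0.282 and 0.52). Their groups overlapped. Mcm5 had 7.78, 9.24 and 7.65 FPKM in WT against 8.15, 6.33 and 5.91 in KO (-0.27, SE 0.14, limma adjusted p = 0.132), and without KO replicate 1 it was called lower (-0.39, limma adjusted p = 0.0227).

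Levels per length can be compared between subunits. Mcm4 was the highest of the 6 in each WT library, at 20.2 to 21.3 FPKM, and Mcm7 in each KO library, at 23.6 to 26.0. Mcm5 was the lowest in all 6 libraries. The sum over the 6 subunits was 88.8, 95.7 and 95.0 FPKM in WT and 93.0, 82.8 and 82.4 in KO, so it overlapped between groups while its make-up shifted. Within a library the ratio of Mcm7 to Mcm2, which a common factor per library cannot move, was 0.899, 0.977 and 0.906 in WT and 2.39, 2.55 and 2.58 in KO. Its mean was 2.7 times as high in KO. Such ratios were computed for 9 gene pairs picked after their values were seen. With 3 libraries a group the exact two-sided permutation test of a ratio cannot go below p = 0.1, which this one reached (0.113 adjusted over the 9). Mcm7 lay higher and Mcm2 lower in every KO library, so this ratio had to reach that p and the test adds no support.

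**Figure D2:**
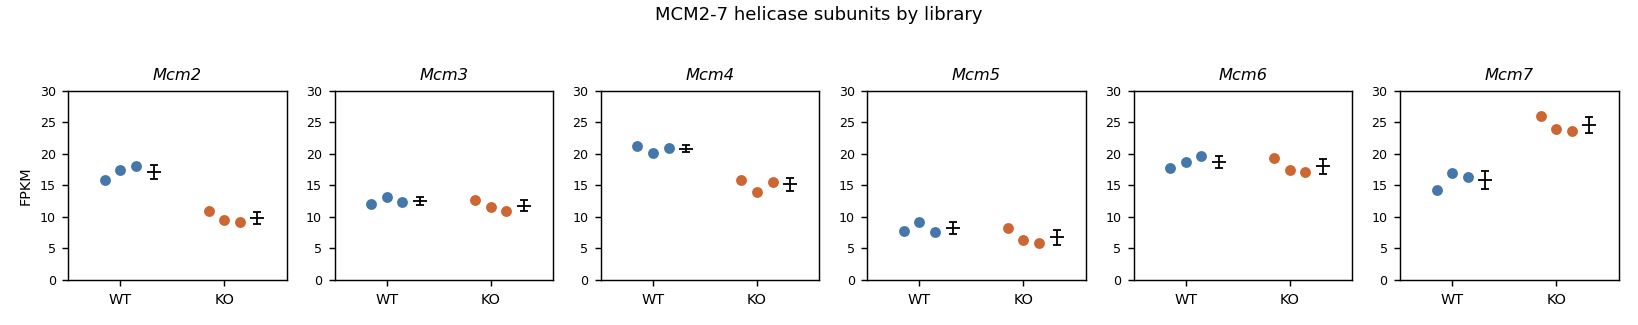
FPKM (y axis, from 0, the same for all panels) of the 6 MCM ring subunits in the 3 WT (blue) and 3 KO (orange) libraries, with the mean ± SD in black. Mcm2 and Mcm4 are lower and Mcm7 is higher in all 3 KO libraries, while Mcm3, Mcm5 and Mcm6 overlap.

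Of the loading and firing members, Cdc6, Mcm10 and Orc1 each stayed below 3 FPKM in every library. Cdc6, the ATPase that brings the ring to the origin, had 2.43, 1.99 and 2.31 FPKM in WT against 1.5, 0.896 and 1.71 in KO (-0.58, SE 0.19, limma adjusted p = 0.0376). Mcm10, a firing factor, was at 2.94, 2.43 and 2.77 and at 2.28, 1.45 and 1.55 (-0.52, SE 0.16, limma adjusted p = 0.0285). Groups did not overlap in either gene, but both calls were lost under median-ratio scaling (limma adjusted p = 0.0655 and 0.0562) and in 4 fits each that left out 1 library, and that of Cdc6 also with no filter (0.061). For Cdc6 those were the fits without WT replicate 1, 2 or 3 or KO replicate 1 (limma adjusted p from 0.0567 to 0.104). For Mcm10 the libraries left out were replicates 1 and 3 of WT and replicates 2 and 3 of KO (limma adjusted p from 0.0769 to 0.085). Orc1, the largest subunit of the origin recognition complex, was at 2.12, 1.58 and 1.88 FPKM in WT, was listed at 0 in KO replicates 1 and 3, and was at 0.803 in KO replicate 2. It passed the test (limma adjusted p = 0.00964), but its 2 zeros are not safe values, as described below.

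The parts that switch the ring on also moved apart. Gins1 fell 2.07-fold, Cdc45 1.8-fold and Gins4 1.36-fold, and Gins3 rose 1.57-fold, although the GINS proteins form a single complex. Gins1 had 6.81, 5.71 and 5.29 FPKM in WT against 3.74, 1.97 and 2.89 in KO (-0.96, SE 0.21, limma adjusted p = 0.00846). Cdc45 was at 8.52, 10.1 and 11.9 and at 5.36, 4.72 and 6.89 (-0.80, SE 0.17, limma adjusted p = 0.00746). Neither gene's groups overlapped. Gins3 had 3.68, 3.13 and 3.76 FPKM in WT against 5.51, 5.51 and 5.53 in KO (0.58, SE 0.08, limma adjusted p = 0.00101), again with no overlap. Gins4 was at 24.3, 28.8 and 29.1 and at 20.2, 16.7 and 23.7 (-0.44, SE 0.14, limma adjusted p = 0.0348). Its groups came within 1 FPKM of each other, and its call was lost under both scalings (limma adjusted p = 0.0793 and 0.101), with no filter (0.0525) and when replicate 2 or 3 of WT, or 1 or 2 of KO, was left out (from 0.0699 to 0.0999).

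The gene of PCNA, the ring that holds polymerases on DNA, was at nearly the same level in both groups. Pcna had 31.7, 31.4 and 31.3 FPKM in WT against 32.9, 30 and 31.3 in KO, with a log2 fold change of 0.00 and SE 0.04 (limma adjusted p = 0.954), and under quantile normalization alone it was called higher by 0.15. Of the loader genes with values, 2 of 3 were lower. Rfc2 fell 1.65-fold, from 19.8, 22.4 and 21.4 FPKM to 13.9, 12.6 and 12.1 (-0.70, SE 0.07, limma adjusted p = 0.000331), with no overlap. Rfc3 was at 14.2 ± 0.41 and 11.8 ± 0.64 (SD, n = 3; -0.26, limma adjusted p = 0.00653), and this call was lost under median-ratio scaling (-0.15, limma adjusted p = 0.0531). Rfc5 was at 7.57 ± 0.21 and 8 ± 0.57 FPKM and was not called (limma adjusted p = 0.357).

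The largest falls among members with a value in every library were in 1 subunit gene each of polymerases delta and epsilon. Pold1, the catalytic subunit of polymerase delta (chr7:44532746-44548849), had 12.6, 12.3 and 12.2 FPKM in WT against 4.16, 3.83 and 3.74 in KO, a 3.17-fold fall (-1.55, SE 0.05, limma adjusted p = 7.78e-06). Pole2, an accessory subunit of polymerase epsilon (chr12:69201773-69228195), was at 8.11, 6.83 and 7.93 and at 2.28, 2.46 and 2.22, a 3.29-fold fall (-1.52, SE 0.08, limma adjusted p = 3.1e-05). In both genes the lowest WT value was more than 2 times the highest KO value. The catalytic subunit gene Pole had 2.56, 2.54 and 2.46 FPKM in WT against 2.73, 1.95 and 1.6 in KO (-0.24, SE 0.16, limma adjusted p = 0.236), and it was called lower only without KO replicate 1 (-0.41, limma adjusted p = 0.0202).

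Polymerase alpha and primase lay down the primers, and 3 of their 4 subunit genes could be read, without Pola2. None of those 3 was called lower by limma as deposited or under the alternatives run. Pola1, the catalytic subunit, rose 1.39-fold, from 4.22, 4.09 and 4.49 FPKM to 6.59, 5.72 and 5.54 (0.43, SE 0.08, limma adjusted p = 0.00419), with no overlap. The primase genes Prim1 (4.53 ± 0.36 FPKM in WT and 5.72 ± 1.26 in KO) and Prim2 (10.0 ± 0.60 and 9.63 ± 0.54; SD, n = 3) were not called (limma adjusted p = 0.14 and 0.48). The ratio of Pola1 to Pold1 within a library was 0.333 to 0.368 in WT and 1.48 to 1.58 in KO. Its mean shifted 4.41-fold (exact two-sided permutation p = 0.1, the smallest that 3 against 3 allow). With Pola1 higher and Pold1 lower in every KO library, that p was fixed in advance and adds no support.

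Ribonucleotide reductase makes dNTPs from ribonucleotides with a large subunit, Rrm1, and a small one, Rrm2. Rrm1 (chr7:102441695-102469771) had 30.1, 23.9 and 30.1 FPKM in WT against 16.6, 14.1 and 13.8 in KO (-0.89, SE 0.12, limma adjusted p = 0.000967). Rrm2 (chr12:24708241-24714146) was at 10.0, 9.30 and 8.91 and at 5.62, 4.79 and 4.36 (-0.88, SE 0.10, limma adjusted p = 0.000523). The falls were 1.89-fold and 1.91-fold with no overlap, and the ratio of Rrm1 to Rrm2 was 2.99 ± 0.41 in WT and 3.02 ± 0.125 in KO (SD, n = 3; exact two-sided permutation p = 1.0).

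In the thymidine branch Dut was called higher, and Tyms and Tk1 were not called with all 6 libraries. Dut, the dUTPase that removes dUTP and supplies dUMP to thymidylate synthase (chr2:125247190-125258608), had 21.6, 22.7 and 23.3 FPKM in WT against 66.6, 48.3 and 40.2 in KO, a 2.3-fold rise (1.15, SE 0.18, limma adjusted p = 0.00202). All KO values lay above all WT values, and the KO values spread widely. Tyms, thymidylate synthase itself, had 7.29, 6.94 and 6.18 FPKM in WT against 12.3, 7.72 and 6.98 in KO (0.34, SE 0.21, limma adjusted p = 0.199). Its groups overlapped, and KO replicate 1 was the highest library for both genes. Tk1, the thymidine kinase of the salvage route (chr11:117815526-117826092), had 38.2, 36.3 and 37.8 FPKM in the WT libraries, 14.3 and 11.1 in KO replicates 1 and 3, and was listed at 0 in KO replicate 2. With that 0 it missed the threshold (limma adjusted p = 0.0813). Without KO replicate 2 it was called lower (-1.54, limma adjusted p = 0.000444), and likewise with zeros as missing (limma adjusted p = 9.62e-05).

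**Figure D3:**
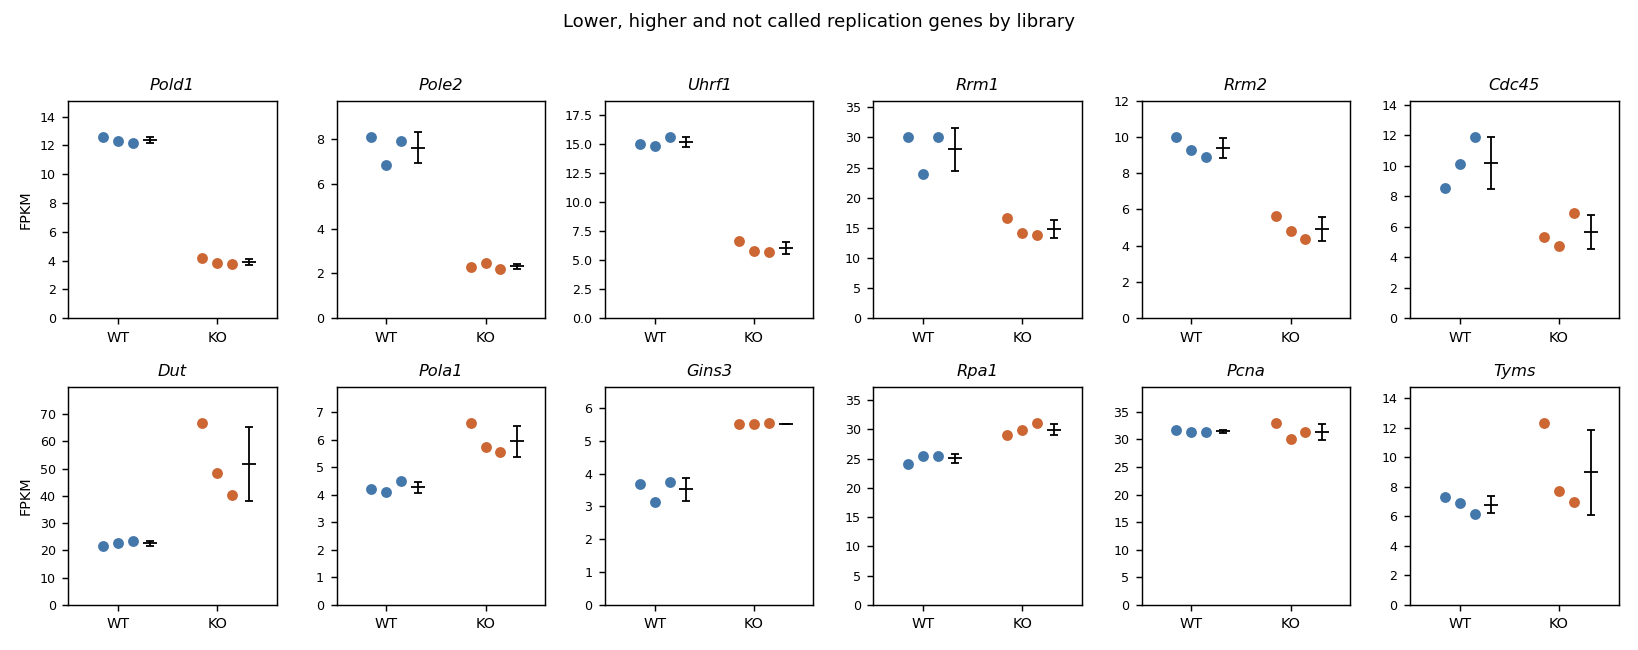
FPKM (y axis, from 0) of 12 members in the 3 WT (blue) and 3 KO (orange) libraries, with the mean ± SD in black. Pold1, Pole2, Uhrf1, Rrm1, Rrm2 and Cdc45 are lower in every KO library, Dut, Pola1, Gins3 and Rpa1 are higher in every KO library, and Pcna and Tyms overlap.

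RPA coats single-stranded DNA as a trimer. Rpa1, its large subunit, rose from 24.1, 25.5 and 25.5 FPKM to 29.0, 29.9 and 31.0 (0.25, SE 0.04, limma adjusted p = 0.00338), while Rpa2 fell 1.82-fold, from 10.4, 9.97 and 12.2 to 6.01, 5.30 and 6.61 (-0.81, SE 0.11, limma adjusted p = 0.000991). Rpa3, the third subunit and not a member of the set, fell 2.31-fold from 50.4 ± 3.37 to 21.8 ± 1.52 FPKM (SD, n = 3; limma adjusted p = 4.23e-05). The ratio of Rpa1 to Rpa2 within a library was 2.09 to 2.56 in WT and 4.69 to 5.64 in KO (exact two-sided permutation p = 0.1). With Rpa1 higher and Rpa2 lower in every KO library, that p too was fixed in advance. Lig1, the ligase that seals Okazaki fragments, was at 13.8 ± 0.42 and 9.56 ± 0.58 FPKM (-0.51, limma adjusted p = 0.000543). Uhrf1, which brings the methyltransferase Dnmt1 to newly copied DNA (chr17:56303321-56323486), fell 2.51-fold, from 15, 14.8 and 15.6 FPKM to 6.64, 5.80 and 5.66 (-1.26, SE 0.07, limma adjusted p = 3.21e-05), with no overlap. Dnmt1 was at 31.3 ± 2.43 and 21.4 ± 1.01 FPKM (-0.54, limma adjusted p = 0.000853).

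An exact 0 in the table is not a safe zero, and 6 members held one. Orc6, a subunit of the origin recognition complex, was listed in WT at 0, 0 and 14.9 FPKM and in KO at 18.1, 0 and 17.0, so its zeros fell in both groups. Pold2, the second subunit of polymerase delta, was listed at 0 in WT replicate 1 beside 40.4 and 39.0 in the other WT libraries, and was at 30.8, 30 and 29.7 in KO. As deposited its log2 fold change was 1.72 (limma adjusted p = 0.421). Without WT replicate 1 it was -0.39 (limma adjusted p = 0.00142), lower in KO.

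Of all tested rows 5.74% had a 0 in at least 1 library, as did 4 of the 34 tested members. Rfc4 and Fen1 were not tested. In the GENCODE M21 annotation (GRCm38), the exons of 4 of the 6 members with a 0 overlap those of a protein-coding neighbour. Among the 30 members without a 0, those of 6 do. Fen1, the flap nuclease, overlaps Tmem258 by 130 bases. Rfc4 overlaps Eif4a2 by 194 bases, and Eif4a2 was at 219 to 267 FPKM in the libraries where Rfc4 was listed at 0. Orc6 overlaps Vps35 by 171 bases and Tk1 overlaps Afmid by 83. Mcm7 overlaps Ap4m1 by 321 bases on the opposite strand, and Ap4m1 was itself listed at 0 in all 6 libraries. The other overlaps among members without a 0 were Rfc2 with Lat2 (952 bases), Rfc5 with Wsb2 (499), Lig1 with Zswim9 (247) and Cdc45 with Ufd1 (209), on opposite strands, and Pole2 with Gm49384 (245) on the same strand. Mcm7 also overlaps Cops6 by 64 bases. Wsb2 was lower in KO (-0.33, limma adjusted p = 0.000644), while Rfc5 was not called. Strand handling by the kit is not stated, and the part of these overlaps in the values was not tested.

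**Figure D4:**
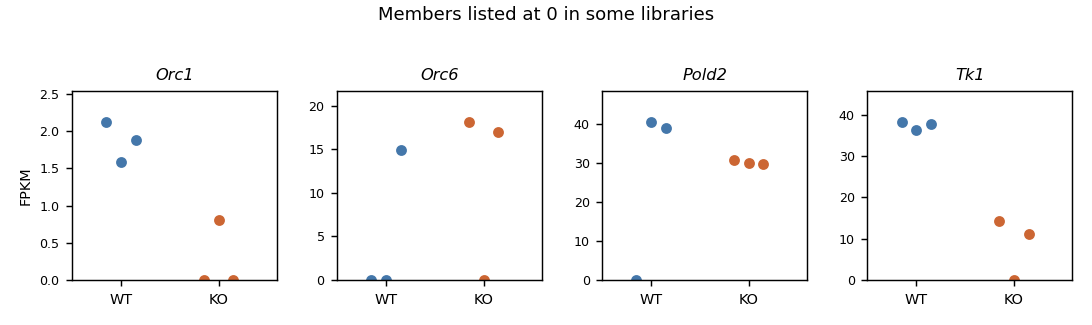
FPKM (y axis, from 0) of the 4 tested members that were listed at 0 in some libraries, for the 3 WT (blue) and 3 KO (orange) libraries, with no mean drawn. Pold2 has its 0 in WT and Tk1 in KO, while the remaining libraries of each group lie close together.

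The KO libraries did not rank alike over the members. Of the 30 members with a value in every library, 22 were highest of the KO group in KO replicate 1 (73.3%), 7 in KO replicate 3 and 1 in KO replicate 2, while 36.9% of all 9911 tested rows without a 0 were highest in KO replicate 1. KO replicate 3 was the lowest for 19 of the 30. In WT the highest library was replicate 1 for 13 members, replicate 2 for 7 and replicate 3 for 10. KO replicate 1 also had the largest share of its FPKM sum in AC166252.2, 23.7%. The median-ratio size factors of KO replicates 1, 2 and 3 were nearly equal, at 0.962, 0.9607 and 0.9618. The part of that share in the ranking was not tested. Without KO replicate 1, Mcm5 and Pole were called lower as given above, and Cdc6 and Gins4 lost their calls. In that fit 17 members were lower and 5 higher, the same numbers as with all 6 libraries.

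Windows from 250 bases before to 50 after RefSeq starts were available for 30 of the 36 members. An E2F-type word lay in 13 of these (43.3%), against 4.92% of 7138 tested genes with a window, whose mean GC content was 61.2% beside 58.3% in members. A CCAAT box (CCAAT, both strands) lay in 20 of the 30 (66.7%) and in 43.9% of tested genes. An E2F-type word lay in 7 of 13 lower, 3 of 5 higher and 3 of 10 uncalled members with a window, and these shares were not tested. The words of Pold1 and Pole2 began 40 and 11 bases after the start. A match is a description of these letters and not evidence of binding.

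Other genes of the pathway, listed by role and with results of these data known, were read beside the members. The counts of this and the lists that follow stand beside 36.7% lower and 28.5% higher over all tested rows. Of 14 tested licensing and firing genes 12 were lower and 1 higher (median -0.38). The origin recognition subunit Orc4 fell 3.32-fold, from 26.1, 24.3 and 28.1 FPKM to 7.18, 7.97 and 8.53 (limma adjusted p = 2.28e-05). The exons of Orc4 overlap those of Acvr2a by 446 bases and those of Mbd5 by 136, on the opposite strand. Mcm9, of a helicase used in repair, rose from 0.781, 0.697 and 0.748 FPKM to 2.67, 4.13 and 1.44 (limma adjusted p = 0.0121). Its exons overlap those of Asf1a by 1748 bases on the opposite strand. Asf1a had mean levels of 7.96 FPKM in WT and 12.1 in KO, and the part of that overlap in the Mcm9 values was not tested. Under median-ratio scaling 7 of the 14 were lower, beside 31.0% of all rows.

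Of 14 tested fork and polymerase genes 10 were lower and 1 higher (median -0.46). Pold3, another polymerase delta subunit, fell 2.2-fold, from 11.7, 9.97 and 11.5 FPKM to 4.98, 5.21 and 4.91 (limma adjusted p = 7.44e-05). Pole4, another polymerase epsilon subunit, was at 24.9 ± 1.15 FPKM in WT and 21.6 ± 5.08 in KO and was not called (-0.23, limma adjusted p = 0.258). In the chromatin assembly list 2 of 6 were lower, with the assembly factor genes Chaf1a and Chaf1b not called (limma adjusted p = 0.402 and 0.811). The exons of Chaf1a overlap those of Ubxn6 by 4648 bases on the opposite strand. Rbl2 and Ccnd1, named below, likewise overlap Aktip by 693 bases and LTO1 by 1100. The part of these overlaps in the values was not tested.

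The wider nucleotide pathways did not move one way. Among 10 tested rows of other deoxynucleotide enzymes 4 were higher and 4 lower (median 0.08), with Nme1 and Nme2 sharing 1 row. Dck, deoxycytidine kinase, fell 2.35-fold, from 6.69 ± 0.21 to 2.85 ± 0.02 FPKM (limma adjusted p = 1.97e-05). Rrm2b, the small reductase subunit used outside S phase, rose 1.35-fold, from 4.46, 4.99 and 4.63 FPKM to 6.85, 6.50 and 5.69 (limma adjusted p = 0.00724), opposite to Rrm2. Of 10 tested purine synthesis genes 5 were higher and 3 lower (median 0.13). Impdh1, which commits IMP to guanine nucleotides, fell 2.06-fold (42.5 ± 0.99 to 20.6 ± 0.38 FPKM, limma adjusted p = 8.27e-06), and the adenylosuccinate synthase gene Adss rose 1.96-fold (24.3 ± 1.92 to 47.6 ± 2.61 FPKM, limma adjusted p = 0.000104). The Impdh1 paralogue Impdh2 stood at higher levels, 138 ± 2.61 FPKM in WT and 114 ± 2.38 in KO, and fell 1.22-fold (limma adjusted p = 0.000554).

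In pyrimidine synthesis 2 of 4 were lower and 2 higher, and Cad was not analysed here. Ctps, the CTP synthase gene, fell 7.52-fold, from 131, 132 and 137 FPKM to 15.7, 18.0 and 19.6 (-2.88, limma adjusted p = 4.81e-06). Its paralogue Ctps2 was at 43.5 ± 6.53 FPKM in WT and 56.2 ± 2.24 in KO (0.38, limma adjusted p = 0.024).

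Among 9 tested genes of the E2F and RB families 3 were lower and 2 higher (median -0.04). E2f1, E2f4 and Rb1 were not analysed here and E2f2 was not tested, so these counts do not cover the families. Rbl1, which encodes the pocket protein p107, fell 2.25-fold (6.30 ± 0.40 to 2.80 ± 0.22 FPKM, limma adjusted p = 9.97e-05), and Rbl2, which encodes p130, rose from 6.13 ± 0.68 to 10.4 ± 1.00 (limma adjusted p = 0.00142). Of the mitosis genes, 16 of 18 tested were lower (median -0.86) and the highest log2 change was -0.13. The falls were led by Aurka, Aurkb and Tpx2, at 3.40-fold, 3.18-fold and 3.04-fold, and then by Ccnb2, Bub1b and Plk1, at 2.55-fold, 2.15-fold and 2.15-fold. The difference between the mitosis and replication medians was not tested. Of 11 tested G1 cyclin and CDK inhibitor genes 5 were lower and 5 higher, and Cdk2, Cdk4 and Cdkn2c were not analysed here. Ccne1, the cyclin that starts S phase with Cdk2, fell 3.41-fold, from 20.3, 19.4 and 20.4 FPKM to 6.02, 6.09 and 5.50 (limma adjusted p = 6.11e-06). The inhibitor genes Cdkn2d and Cdkn1b fell 4.98-fold and 2.12-fold (limma adjusted p = 2.78e-05 and 1.26e-05). The inhibitor genes Cdkn1a, Cdkn2a and Cdkn2b were called higher, by 0.44, 0.23 and 0.74 on the log2 scale (limma adjusted p = 0.000305, 0.0088 and 0.000229), so 3 of 5 tested inhibitors rose and 2 fell. Ccnd1, a cyclin of early G1, and Cdk6, its kinase partner, were also higher, by 0.73 and 0.39, and Ccnd2 was lower (-0.83). Ccne2 was at 2.81, 2.95 and 3.27 FPKM in WT and 1.69 in KO replicate 1, was listed at 0 in KO replicates 2 and 3, and was called lower (limma adjusted p = 0.023). As with Orc1, its 2 zeros are not safe values, and its exons overlap those of Ints8 by 609 bases on the opposite strand.

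**Figure D5:**
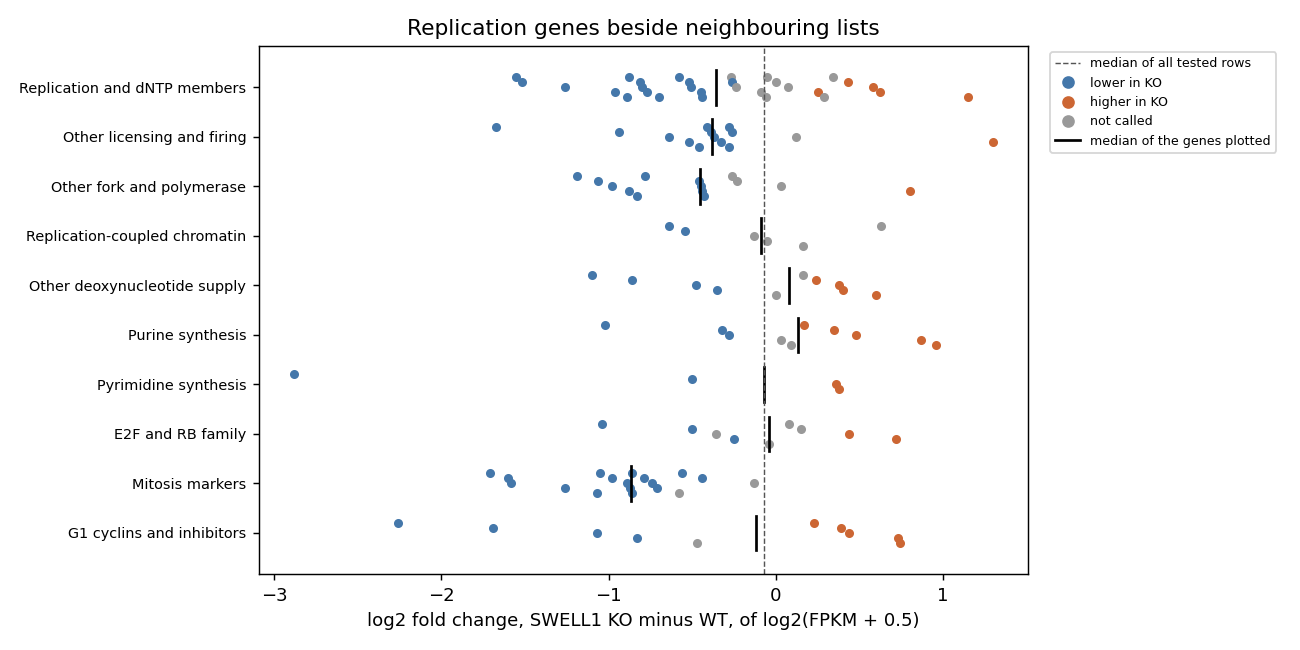
Log2 fold change (KO minus WT of log2(FPKM + 0.5), x axis) of each tested gene without a 0 in any library, by list, with the median of the plotted genes in black and that of all tested rows dashed at -0.07. Members, other licensing genes, other fork genes and mitosis markers lie mostly to the left, while the nucleotide lists fall on both sides.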

How the data were processed

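RNA was sequenced from 3 WT and 3 SWELL1 KO cultures of 3T3-F442A cells. The authors deposited 1 table of FPKM values with 1 column per library. The authors used TopHat and Cufflinks 2.02 with GRCm38, per the submitters' processing notes. The FPKM unit is inferred, since no header names it, and no source names the settings or annotation. Columns were matched to libraries by the sample names in the labels.

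Rows averaging 0.5 FPKM or more were tested on log2(FPKM + 0.5) with limma 3.58.1 (R 4.3.3, mean-variance trend, two-sided, Benjamini-Hochberg over all tested rows, threshold 0.05), with no further scaling. Depth was estimated by taking the lowest peak of FPKM times length, over 958 single-transcript genes of 2500 bases or longer, as 1 fragment. By that estimate the 30 members without a 0 rested on means of 63.7 to 3220 fragments a library, so low genes are less precise. Log2 fold changes understate the change of low genes. Members with a library at 0 are given by library, with no fold. Values of every library are given for members past the threshold at a log2 change of at least 0.58, members with a 0, the 3 highest and 3 lowest, Mcm2 to Mcm7, Pcna, Rrm1, Rrm2, Tyms and Tk1. Rpa1, Pola1, Pole, Gins4 and Mcm10 were shown in full as well, and the pathway and cell cycle lists named called genes past a log2 change of 1, at most 6 a list, with further genes named after their values were seen. Marker lists are given mainly by their sums. The members and lists were chosen with earlier results of these data known.

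Same-numbered WT and KO libraries did not deviate together (r of 0.00342, 0.0116 and -0.0932), so they were not treated as pairs. Alternatives were pseudocounts of 0.1 and 1, filters, median-ratio and quantile scaling, the replicate block, other variance models, each library left out, single-gene rows and zeros as missing (the last added after seeing the data). Promoter windows come from RefSeq (GRCm38.p6). Python 3.11.15, pandas 2.3.3, numpy 2.4.6 and matplotlib 3.10.9 were used.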

Additional observations from a re-analysis of the deposited data

How the results depend on the processing

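All 5 higher member calls and 13 of 17 lower calls stood under all 17 alternatives; Mcm10, Cdc6, Gins4 and Rfc3 did not. Leaving out 1 library gave 14 to 17 lower members and 5 higher. Median-ratio scaling moved the members' median to -0.25, and left 3 lower licensing members, 1 lower clamp and loader member, 7 lower of the other licensing genes and 1 higher chromatin gene. Quantile normalization gave 1 higher clamp and loader member, Pcna (0.15, limma adjusted p = 0.0301, against 0.00 as deposited), and 1 higher chromatin gene. Pold2 turned from 1.72 to -0.39 without WT replicate 1 and with zeros as missing, and with 1 library left out ranged from -0.39 to 2.79. With 1 library left out, lower licensing members ranged from 3 to 5, higher fork genes from 0 to 1, higher chromatin genes from 0 to 1, higher pyrimidine genes from 1 to 2 and higher E2F and RB genes from 1 to 2. The replicate block left 17 lower and 5 higher members and 1 higher E2F and RB gene. The cause of these changes was not tested. Depth limits low members such as Cdc6, Mcm10 and Orc1, and zeros limit Orc1, Orc6, Pold2, Tk1, Rfc4 and Fen1.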
